A study of Drosophila melanogaster with 5 samples.

Results

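The open chromatin of dopamine neuron nuclei was described from the intervals that both dopamine libraries called. Of the 40255 distinct intervals that the authors called in dopamine library 1, 31890 (79.2%) overlapped an interval of dopamine library 2 by 1 bp or more, and these shared dopamine intervals are the subject here. Of the 39261 intervals of library 2, 30292 (77.2%) overlapped 1 of library 1. The rule used the positions of listed intervals, so the gene beside a peak did not choose a member. Height and width did bear on it. A site had to pass the limit of both lists, and a wide interval meets an overlap of 1 bp more easily. That shared intervals are stronger and wider, as given below, thus follows in part from the rule.

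The study prepared ATAC-seq libraries from adult *Drosophila melanogaster* heads, 2 from dopamine neurons and 3 from GABA neurons. The flies carried TH-Gal4 for dopamine neurons or vGAT-Gal4 for GABA neurons, each driving green fluorescent protein in the nucleus, and the labelled nuclei were collected by flow cytometry. The protocol of the study crosses such a driver to UAS-Stinger-nls, a bright nuclear reporter. Sex, age and the other alleles of the flies are not given in the sources used here. No source says whether the 2 dopamine libraries came from separate collections of flies, so the spread between them may be partly technical, and 2 libraries of 1 group allow no test.

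Dopamine neurons make their transmitter from tyrosine. Tyrosine hydroxylase, encoded in flies by *ple*, makes L-DOPA, and the decarboxylase Ddc turns it into dopamine. The vesicular transporter Vmat loads dopamine into synaptic vesicles, and the transporter DAT takes it back up from the synapse. In flies, dopamine takes part in arousal, movement, reward and memory, while the same amine, made in the epidermis, is used to harden and colour the cuticle. ATAC-seq inserts adapters with the Tn5 transposase where DNA is not wrapped in nucleosomes, so reads pile up at promoters, enhancers and other open stretches. An open promoter can be in use, but it may also be poised, and openness is no measure of transcription.

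The GAL4 driver sets a limit on what these nuclei represent. TH-Gal4 carries regulatory DNA of *ple*, so reads from the transgene and reads from the native *ple* locus cannot be told apart where the transgene holds the same sequence. A driver of this kind labels every head cell in which the *ple* fragment is active, and a sort of nuclei lets through some unlabelled ones.

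Each list gives, for every summit (the highest point of a peak), a fold enrichment, which is the read pileup at the summit relative to a background. Library 1 held 69464 summits and library 2 held 69940. The fold enrichments took only 84 distinct values in library 1 and 82 in library 2, and 100% of them were whole numbers of reads, within 0.02 of a read, over a single background of 12.3 reads in library 1 and 7.79 reads in library 2. Pileups could thus be read back from the lists. They ran from 23 to 112 reads with a median of 34 in library 1, and from 16 to 97 reads with a median of 27 in library 2. A pileup of 34 reads has an exact 95% Poisson interval of 23.5 to 47.5 reads, and a pileup of 27 reads one of 17.8 to 39.3 reads. These intervals cover counting error only. The study lists similar read numbers for both libraries but a higher share of duplicate reads in library 2. What this does to the fold enrichments and to the limits of the lists was not tested. A site under 23 reads in library 1 or under 16 reads in library 2 was not listed, so a site with no interval was below the limit of these lists and is not shown to be closed.

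The shared intervals were the stronger and wider part of each list. Their highest summit had a median fold enrichment of 2.86, against 2.10 for the 8365 intervals that library 1 alone held, and a median pileup of 37 reads against 27 reads. The median width was 204 bp for shared intervals and 103 bp for those of library 1 alone. More than 1 summit was found in 43.8% of the shared intervals and in 6.40% of the others. In library 2, the shared intervals had a median fold enrichment of 3.53 and a median width of 231 bp, against 2.39 and 103 bp for the 8969 intervals that it alone held. No interval of library 1 alone exceeded a fold enrichment of 3.53, whereas the strongest shared interval reached 8.49. The shared intervals covered 9.59 Mb, which was 90.6% of all bases in the intervals of library 1.

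Whether an interval was found again followed its strength. The intervals of each library were put into 10 classes by fold enrichment, which hold 2413 to 4997 intervals in library 1 and 3028 to 4805 in library 2, since many intervals share a value. In the weakest class of library 1, with fold enrichments of 1.80 to 1.95, 41.7% of intervals were shared, and in the fifth, with 2.40 to 2.55, 82.4% were. In both of the strongest classes, from 3.76 upwards, 100% were shared. Library 2 gave 41.9% in its weakest class and 100% in its strongest classes. All of the 1000 strongest intervals of either library were shared, as were 9999 and 9994 of the strongest 10000. At the edge of the rule, 227 members overlapped library 2 by at most 20 bp and had a median fold enrichment of 2.03, and 142 intervals missed a library 2 interval by at most 20 bp and had a median of 2.10. Across members the median overlap was 98.1% of their width.

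The fold enrichments of shared intervals were correlated between the libraries. Across the 31890 members, the highest fold enrichments of both libraries had a Spearman's rho of 0.81 and a Pearson's r of 0.83 on the log2 scale. Intervals are not independent replicates, and the points share depth and base composition, so no p-value is given. In the 11615 members with a single summit in both libraries, rho was 0.75 and r was 0.82. The median fold enrichment ratio of library 1 over library 2 was 0.788. Around it, the log2 ratio had an SD of 0.31. This SD covers only intervals that passed the limit of both lists, which narrows it. By percentile among the intervals of its own list, a member differed by a median of 7.93 between libraries, and 56.8% of members differed by at most 10. The position of the summits was also shared. The strongest summit of a member lay a median of 11 bp from the nearest summit in library 2, and 85.8% lay within 50 bp. In the strongest of the 10 classes this distance was 6 bp, and 95.9% lay within 50 bp.

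**Figure D1:**
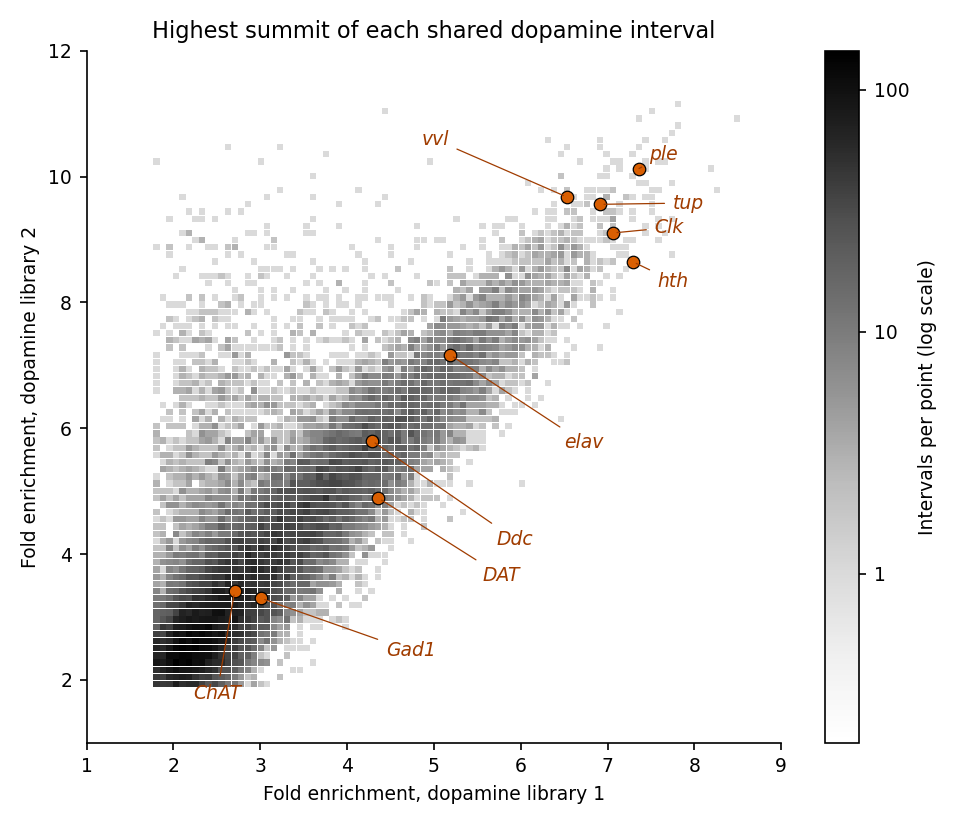
Fold enrichment of the highest summit of each shared interval in dopamine library 1 (x axis) and dopamine library 2 (y axis), with darker squares for more intervals on a log scale. Orange points mark the strongest start site summit of named genes, from *ple* at 7.36 and 10.1 down to *ChAT* at 2.70 and 3.41. Points far above the main band include members that lie with others inside 1 wide library 2 interval, as 6808 members do.

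The marker genes of dopamine neurons held shared intervals, with 1 exception. The *ple* gene (3L:6713356-6719525, minus strand) had its strongest summit 207 bp upstream of the start site in library 1 and 203 bp upstream in library 2. There the fold enrichment was 7.36 and 10.1, from pileups of 97 reads (95% Poisson interval 78.7 to 118) and 88 reads (70.6 to 108). These summits stood at the 99.9th and 99.96th percentile of all summits of their own list. In the gene and 2 kb on each side, 35 summits in shared intervals were found in each library, upstream of the gene, in its body and beyond its end. A second strong site lay beyond the end of *ple*, at 6727 bp and 6728 bp from its start, with fold enrichments of 6.46 and 8.65. The *ple* locus is the one at which reads of the driver transgene may add to those of the native gene.

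At *Ddc* (2L:19116483-19120306, minus strand), the strongest summit lay 37 bp upstream of the start in library 1 and 44 bp upstream in library 2. Its fold enrichment was 4.28 from 56 reads and 5.80 from 50 reads, which was the 87.4th and 89.2nd percentile. In and around the gene, 18 and 16 summits were in shared intervals. At *DAT* (2R:16558567-16565238, minus strand), the strongest summit lay 345 bp and 316 bp upstream, with fold enrichments of 4.36 from 57 reads and 4.89 from 42 reads, at the 88.3rd and 80.2nd percentile. *DAT* had 7 summits in shared intervals in each library, all of them within 1.1 kb of its start.

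*Vmat* (2R:13513132-13534251, minus strand) held no shared interval in its span or within 2 kb of it. Library 1 had 2 summits in 1 interval, 179 and 277 bp upstream of the start used, at fold enrichments of 1.80 and 2.18. Library 2 did not list that site and had 1 summit at 2.28, 2185 bp downstream of that start. The stronger summits rested on 28 reads (95% Poisson interval 18.6 to 40.5) and 19 reads (11.4 to 29.7), near the lowest pileups that the lists hold. By the rule, 3 of the 4 defining genes of the label thus had shared open chromatin, and the vesicular transporter did not. Among all protein-coding genes, 61.2% had a shared summit within 500 bp of a start in both libraries. The count of 3 of 4 alone thus does not set the markers apart. *DAT* stood near the median percentile of all such genes, which was 82.1 in library 1 and 84.0 in library 2.

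**Figure D2:**
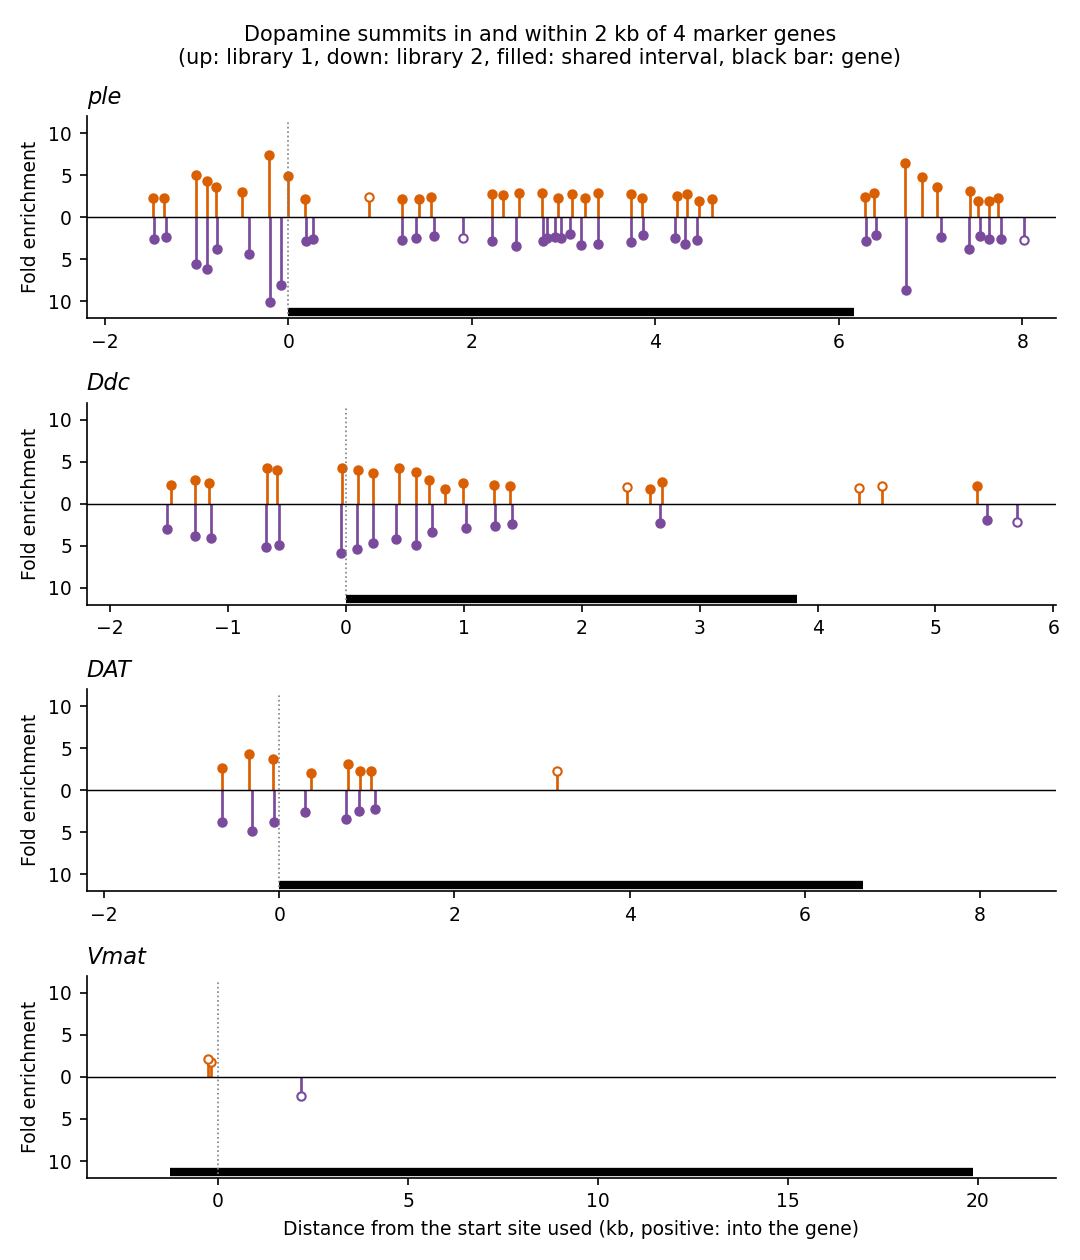
Summits in and within 2 kb of *ple*, *Ddc*, *DAT* and *Vmat* by distance from the start site in kb (x axis) and fold enrichment (y axis), with library 1 drawn upwards and library 2 downwards. Filled points are summits in shared intervals, open points are not, and the black bar is the gene. The summits of both libraries mirror each other at *ple*, *Ddc* and *DAT*, and *Vmat* has only open points.

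Most other genes of the dopamine pathway had shared summits at their start sites. A gene was counted as open at the start when a shared summit lay within 500 bp of an annotated start site in both libraries. This held for 8473 of 13842 protein-coding genes (61.2%), and the count of each list is read against that share. The share mixes 11830 genes with a start in the annotation used, of which 8051 were open, and 2012 without one. For the latter either gene end was used, and 422 were open. The 61.2% is thus low for a list whose genes all had a start. Of 9 genes for dopamine synthesis and handling, 7 were open at the start, and *Vmat* and *Catsup* were not. *Pu*, *pr*, *Pcd* and *Dhpr* encode the makers and recyclers of tetrahydrobiopterin, the cofactor of tyrosine hydroxylase. *Pu* encodes GTP cyclohydrolase, the first enzyme of that path, and had start summits of 5.18 in library 1 and 7.17 in library 2. *pr* and *Pcd* both stood at 5.33 in library 1, with 7.40 and 7.17 in library 2. *Dhpr* stood at 4.13 and 6.26, but it had no start in the annotation used, so a summit near either end of the gene was counted. *Catsup*, which restrains tyrosine hydroxylase, had 3 shared summits within 2 kb in each library and none within 500 bp of its start. The 7 open genes had a median percentile of 95.4 in library 1 and 96.7 in library 2, against 82.1 and 84.0 for all open protein-coding genes. This level was not particular to the dopamine pathway. The open circadian clock genes had medians of 95.8 and 97.1, and the housekeeping genes 94.4 and 92.9. The open genes of dopamine breakdown and tanning had 95.4 and 97.4, and those induced by neuronal activity 97.6 and 99.2. The open transcription factor genes linked to dopamine neurons had 99.5 in both libraries. Other lists lay lower, such as the glial genes (87.1 and 89.4), the pan-neuronal genes (78.2 and 85.6) and the cholinergic genes (51.6 and 55.1).

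Genes around the breakdown of dopamine and the tanning of the cuticle were also looked at. In flies, *e* joins dopamine to beta-alanine, *b* supplies the beta-alanine, *speck* acetylates dopamine and *t* splits the beta-alanyl conjugate. Of these 4 genes, 3 were open at the start (75%, against 61.2% of all protein-coding genes). *e* had start summits of 5.79 and 7.62, *b* of 5.18 and 6.37 and *speck* of 5.18 and 7.40. *t* had 2 shared summits inside the gene in each library, up to 3.23 and 3.64, and none at its start. These enzymes act in neurons or glia and also in the tanning of the cuticle, and the intervals do not separate these uses.

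All 4 dopamine receptor genes were open at the start (against 61.2% of all protein-coding genes), at more moderate levels. *Dop1R2*, a receptor of the D1 type, was the strongest in library 1 with 4.51, against 5.01 in library 2. *Dop1R1*, the other D1-type receptor, stood at 3.46 and 4.44, and *Dop2R*, the D2-type receptor, at 3.46 and 4.89. *DopEcR*, which responds to dopamine and to ecdysteroids, stood at 2.93 and 3.41. The receptors differed in the summits inside the gene. *DopEcR*, over 12739 bp, had 9 shared summits in its body in each library. *Dop1R2*, over 29681 bp, had none there. *Dop2R*, over 58027 bp, had 1 shared summit in its body in each library, and *Dop1R1*, over 49432 bp, had 0 in library 1 and 2 in library 2.

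Among transcription factors linked to dopamine neurons in flies or, through their mammalian relatives, in mammals, 5 of 6 were open at the start. The share over all protein-coding genes was 61.2%. *hth*, a homeodomain partner of Hox proteins, reached 7.29 in library 1 and 8.65 in library 2. *tup*, the fly Islet, reached 6.91 and 9.56, and *vvl*, a POU-domain factor, 6.54 and 9.67. These 3 stood at or above the 99.4th percentile in both libraries. *exd*, the partner of *hth*, had 4.81 and 6.60. *Lmx1a* was weaker, at 3.31 and 3.19. *Fer2*, a helix-loop-helix factor needed by a group of fly dopamine neurons, had 1 shared summit within 2 kb in each library and none at its start.

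Genes for the receptors of other transmitters were open at the start in 11 of 14 cases (78.6%, against 61.2% of all protein-coding genes). The strongest was *Rdl*, a GABA-gated chloride channel, with 5.26 in library 1 and 8.08 in library 2, followed by the nicotinic subunit gene *nAChRalpha5* with 5.03 and 7.06. *GABA-B-R1* was the weakest of those open, at 2.03 and 2.39. *nAChRalpha4* had no shared summit in its span of 80780 bp or within 2 kb. Of 10 neuropeptide receptor genes, 4 were open at the start (40%, against 61.2%), with *sNPF-R* the strongest at 4.43 and 6.60. *NPFR*, *Pdfr*, *Lkr*, *Dh44-R1*, *AkhR* and *Lgr3* were not open at the start, and *Dh44-R1* had no shared summit within 2 kb either.

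The fly counterparts of genes linked to Parkinson disease were open in 10 of 10 cases, against 61.2% of all protein-coding genes. *Lrrk*, a large kinase, had start summits of 4.51 and 6.49, and *dj-1beta* of 5.18 and 6.83. *park*, the ubiquitin ligase Parkin, stood at 3.68 and 5.46, *Pink1*, its partner kinase, at 3.16 and 4.67, and *Vps35*, a retromer subunit, at 3.38 and 5.01. *DJ-1alpha* was the lowest, at 2.03 and 2.28. All 8 circadian clock genes were open, against the same 61.2%. *Clk*, the activator of the clock, reached 7.06 and 9.10, and its targets *vri* and *per* reached 6.69 and 8.31, and 5.41 and 7.85. *Pdp1*, another clock target, held 67 shared summits in library 1 and 78 in library 2 inside the gene. All 3 genes induced by neuronal activity were open, again against 61.2%. *sr* stood at 6.61 and 8.42, *kay* at 5.63 and 8.42 and *Hr38* at 4.51 and 6.14.

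The listed genes of neurons in general were all open at the start. All 12 pan-neuronal genes on the 5 large chromosome arms had a shared start summit, against 61.2% of all protein-coding genes. Their median percentiles were 78.2 in library 1 and 85.6 in library 2, near the 82.1 and 84.0 of all open protein-coding genes. *elav*, which encodes an RNA-binding protein of neurons, stood at 5.18 and 7.17, *Csp* at 5.79 and 7.06, *brp*, a scaffold of the active zone, at 3.91 and 6.71 and the sodium channel gene *para* at 3.08 and 5.12. *Snap25* was the weakest, at 1.80 and 3.53, and 1.80 was the lowest fold enrichment that library 1 listed. All 8 housekeeping genes were open too, against the same 61.2%, from *RpS3* at 3.16 and 4.89 to *Act5C* at 6.54 and 9.22.

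Of 10 genes that mark neurons of other transmitters, 7 were open at the start, a share near the 61.2% of all protein-coding genes. *Gad1*, the GABA-making enzyme, had a start summit of 3.01 in library 1 and 3.30 in library 2, and *VGAT*, the vesicular GABA transporter, of 3.31 and 4.55. *ChAT* and *VAChT*, which share a start site, stood at 2.70 and 3.41, and *ChT* at 2.48 and 3.19. *VGlut* stood at 3.46 and 4.89. These 6 genes ranked between the 40.7th and 80.2nd percentile. In library 2, *VGlut* had the same start fold enrichment as *DAT*, 4.89. *Tbh*, the octopamine-making enzyme, had 3.38 and 5.01, above *DAT* in library 2 and below its 4.36 in library 1, and *Tdc2*, which makes its precursor, had no shared summit within 2 kb. *Trhn* and *SerT*, the markers of serotonin neurons, were not open at the start, but both had shared summits nearby. *SerT* had 10 in library 1 and 11 in library 2 within 2 kb, up to the 83.3rd and 90.1st percentile, and none in its span. *Trhn* had 3 and 4 in the gene and within 2 kb.

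Markers of other head tissues were mixed. Of 6 glial genes, 4 were open (66.7%, near the 61.2% of all protein-coding genes). *moody* stood at 6.24 and 9.10, *Gs2* at 4.88 and 6.49, *Eaat1* at 3.83 and 5.35 and *repo*, the defining factor of glia, at 3.08 and 4.10. *alrm*, an astrocyte gene, had no shared summit within 2 kb. The glial list held 81 shared summits in and around its genes in library 1 and 76 in library 2. Such sums are not scaled by gene length and take in summits within 2 kb, which may belong to neighbouring genes. *wrapper*, for instance, had none in its span and 6 and 7 within 2 kb. Of 8 photoreceptor genes, 2 were open, *norpA* and *Rh5* (25%, against 61.2% of all protein-coding genes). *trp* had no shared summit within 2 kb. The rhodopsin gene *ninaE* was not open at the start and had 6 shared summits within 2 kb in each library. *Rh4* was not open at the start either, but held shared summits of up to 4.96 and 7.40 inside the gene. The photoreceptor list held 67 and 72 summits.

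Of 7 genes for epidermis and cuticle, 3 were open (42.9%, against 61.2% of all protein-coding genes). *Cpr49Ac*, not among them, had no start in the annotation used, so either end of the gene was counted. *grh*, a factor of epidermis and of neural stem cells, held 68 shared summits in library 1 and 64 in library 2 and had start summits of 5.94 and 7.28. *verm* and *serp*, which modify chitin, had 4.36 and 5.69, and 3.38 and 5.12. The cuticle protein genes *Twdlbeta* and *TwdlE* had no shared summit within 2 kb. The epidermal list held 98 and 94 summits. Of 5 fat body genes, 3 were open (60%, near the 61.2% of all protein-coding genes), and the list held 38 and 41 summits. They were led by *FASN1*, a fatty acid synthase that many cells use, at 5.71 and 7.85. *Lsp2*, also counted as open, had no start in the annotation used, so a summit near either end was counted. Of 5 muscle genes, *Mef2* alone was open (20%, against the same 61.2%). It stood at 5.63 and 8.31 and is also used in neurons. *Mhc*, *Act88F*, *up* and *wupA*, which encode proteins of the contractile apparatus, had no shared summit within 2 kb, so *Mef2* accounted for all 45 and 51 summits of that list. None of 3 hemocyte genes was open, against the same 61.2%, with 4 and 5 summits in that list. Of 9 genes of the germline and reproductive glands, *bam* alone was open (11.1%, against the same 61.2%). It stood at 3.38 and 4.44, and the list held 18 and 17 summits. For 4 of the 9, no start was in the annotation used, so either end of the gene was counted. The part of other cell types in the shared intervals was not tested. In libraries from many sorted nuclei, a site open in few nuclei and a site weakly open in many cannot be told apart.

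**Figure D3:**
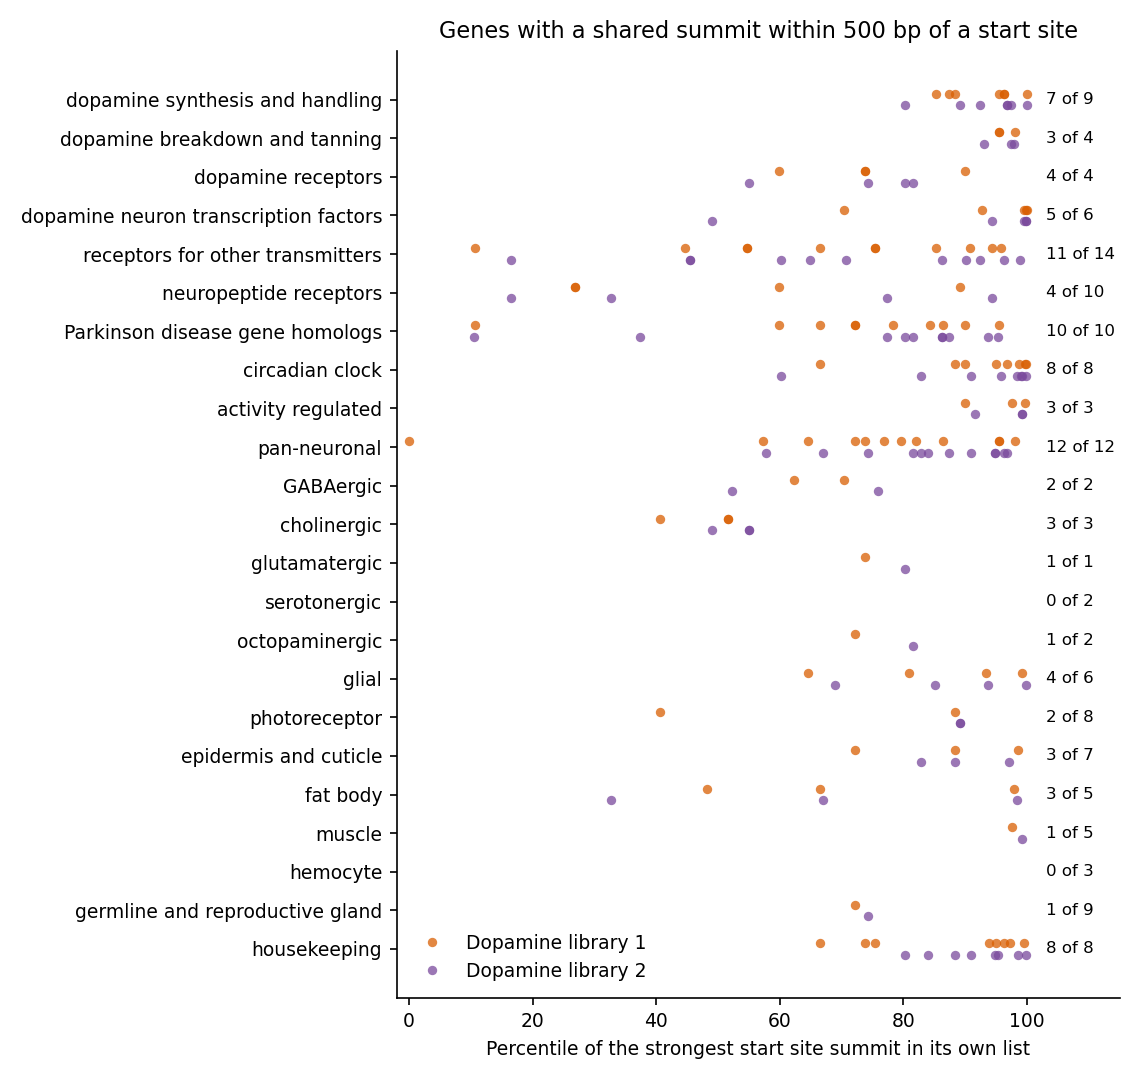
Percentile (x axis) of the strongest shared summit within 500 bp of a start site for each open gene of 23 lists (rows), in dopamine library 1 (orange) and library 2 (purple). The count at the right gives the open genes of those on the 5 arms. Dopamine synthesis genes lie above the 80th percentile in both libraries, cholinergic genes lie between the 40.7th and 55.1st, and serotonergic and hemocyte genes have no point.

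The strongest shared summits, counted once per interval, lay at genes other than the markers. In library 1 the strongest was 102 bp upstream of *Awh* (interval 3L:3845523-3846424), a LIM-homeodomain factor, with a fold enrichment of 8.49 from 112 reads. Library 2 gave 10.9 at a summit 2 bp away. *CG5853* (2L:9947206-9947745) followed with 8.26, against 9.79 in library 2, and *CG5001* (2L:1185727-1186564) with 8.19, against 10.1. In library 2 the strongest was 38 bp upstream of *HmgZ* (2R:21703495-21705035), an HMG-box protein of chromatin, with 11.2 from 97 reads, and the highest summit of library 1 within 150 bp of it was 7.81.

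The other strongest summits of library 1 were at *cbt*, a Krüppel-like zinc finger factor, *HmgZ*, *lncRNA:CR43314*, *tRNA:Met-CAT-1-2*, *GstE12*, a glutathione transferase, *tara* and *siz*, a guanine nucleotide exchange factor for Arf proteins. They ran from 7.66 to 7.81. In library 2, *snRNA:7SKa*, the RNA that restrains transcription elongation through P-TEFb, reached 11.04, and the shared promoter region of *lncRNA:CR46075* and *jing*, a zinc finger factor, reached 10.9. *Awh*, *cbt*, *tara*, *lncRNA:CR44761*, *svp*, an orphan nuclear receptor, *lncRNA:CR46036*, which lies in *osa*, and *Atet*, an ABC transporter, completed its 10 strongest, between 10.5 and 10.9. *Awh*, *HmgZ*, *cbt* and *tara* were in both sets of 10. Each of the 20 summits ranked at or above the 99.5th percentile in the other library.

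Of these, *tara* was the one inside an intron. Its summit lay 6388 bp upstream of the nearest start in library 1 and 6402 bp upstream in library 2 (interval 3R:16236234-16236880), with 7.74 and 10.7. *tara* encodes a chromatin-linked factor with a role in sleep and the cell cycle. The *lncRNA:CR44761* site lay 4475 bp from a start and was annotated as distal intergenic. All others in both sets were annotated as promoters.

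The widest shared intervals were also strong. The widest covered 4051 bp at *Sin3A* (2R:12586456-12590506), which encodes a scaffold of histone deacetylase complexes. It held 21 summits, the highest at 7.06 in library 1 and 9.79 in library 2. The next covered 3997 bp at *CG2604* with 19 summits and 3870 bp over *cbt* and *ush* with 20 summits. In all, 965 members (3.03%) were at least 1000 bp wide. Of those with an annotation, 85.5% were promoters, and 73.1% of all 965 had a summit within 500 bp of a start. Width and fold enrichment in library 1 had a Spearman's rho of 0.66 across members, and a wider interval has more summits from which the highest is taken.

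The number of shared summits differed widely between genes. Of 13842 protein-coding genes, 7875 (56.9%) held a shared summit of library 1 in their span, the median gene held 1, and 491 held 20 or more. *Glut4EF*, a transcription factor gene of 120684 bp (3R:9874681-9995364), held the most, with 158 in library 1 and 157 in library 2. *CG46467* lies inside the same span, so its 157 and 156 are nearly all the same summits. Then came *EcR*, the receptor of the moulting hormone ecdysone, with 104 and 109, *tara* with 103 and 112 and *Eip75B*, a nuclear receptor gene first found as ecdysone-induced, with 103 and 91. *bun*, of the TSC22 family, had 91 and 95, *ps*, the fly Nova splicing factor, 89 and 84, *mtd* 88 and 89 and *Tlk*, a kinase of chromatin assembly, 86 and 93. *Eip74EF*, an ETS factor gene, had 81 and 85, and *shn*, a zinc finger factor of Dpp signalling, had 80 and 91. The counts per gene in both libraries had a Pearson's r of 0.99 across genes. Both counts hold only summits in intervals that overlap the other library, and both depend on the gene's length. The r is thus set in part by the rule and is no measure of how well the libraries agree.

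Genes of like length differed widely in their counts. Across genes, the count and the gene's length had a Spearman's rho of 0.53. Among the 656 protein-coding genes of 30 kb or more, rho was 0.15, the median was 11 summits, 69 genes held 0 and 228 held 5 or fewer. *tara* reached 2.97 summits per kb and *ps* 2.37, against a median of 0.199 for these long genes. Per kb, with at least 10 summits, short genes led, and none of the 10 genes with most summits was among the first 10. *Coop* had 6.27 summits per kb (11 in 1754 bp in library 1, and 7 in library 2), and *Fer1HCH*, a ferritin subunit gene, 5.76.

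Most members were promoters by the authors' annotation. Of the 29897 members that overlapped a row of the annotated region table, 67.4% were within 1 kb of a start and 10.2% between 1 and 2 kb, 77.6% in both classes. Introns held 14.4%, distal intergenic sequence 3.70% and exons 2.21%. Over all 80590 rows of the table, which includes regions of the GABA libraries, 56.1% were promoters, 19.8% introns and 13.5% exons. Of the intervals that library 1 alone held, 67.8% were promoters and 14.4% exons, and of those that library 2 alone held, 61.4% were promoters and 22.1% introns. The 1993 members (6.25%) with no row were weak and narrow. Their median fold enrichment was 2.40 in library 1, their median width 106 bp, and 27.7% lay within 500 bp of a start.

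**Figure D4:**
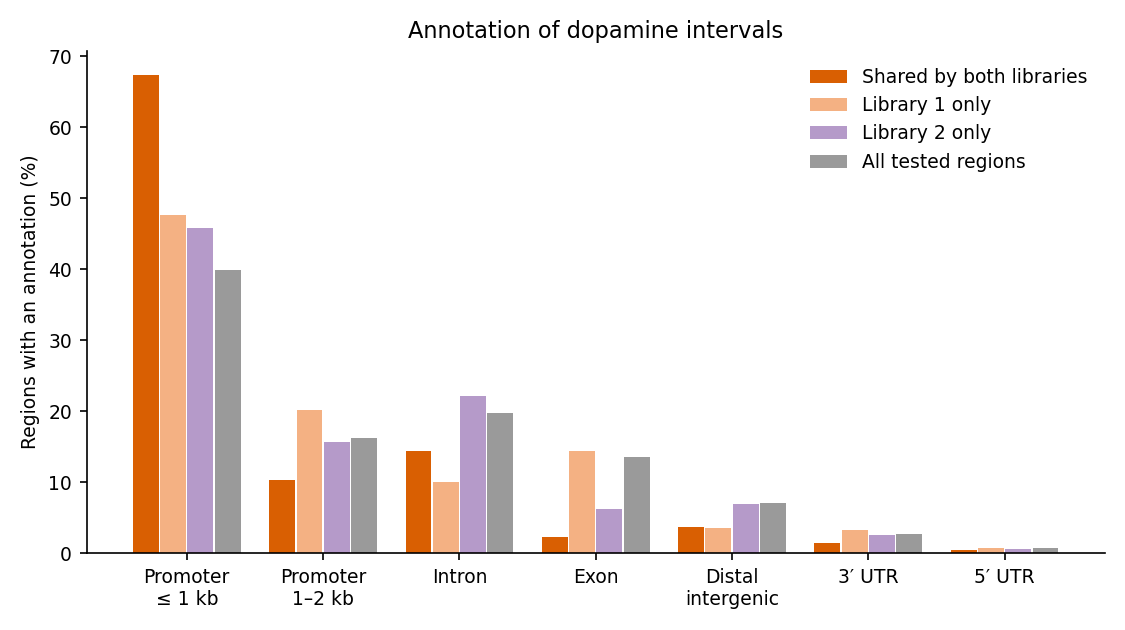
Share of annotated regions (y axis, %) in each annotation class (x axis) for dopamine intervals shared by both libraries (dark orange), intervals of library 1 only (light orange), intervals of library 2 only (purple) and all regions of the authors' table (grey). Shared intervals have 67.4% within 1 kb of a start, against 47.6%, 45.8% and 39.8%, and 2.21% in exons, against 14.4%, 6.24% and 13.5%.

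Members within 1 kb of a start were the strongest of the larger classes. They had a median fold enrichment of 3.01 in library 1 and 4.21 in library 2. Distal intergenic members had 2.78 and 3.53, intronic members 2.70 and 3.41, and exonic members 2.33 and 2.62. Among the 100 strongest members, 90% were promoters and 6% intronic, and among the 1000 strongest 81.8% and 12.3%. Of the 4313 intronic members, 39.1% lay in a first intron, against 33.2% of all intron rows of the table.

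The distance of the summits from start sites was described on a finer scale. The start sites came from the same annotation columns as the promoter class, which name a start only where it is nearest to a tested region. The distances are thus no separate support for the promoter share. By whichever of its summits was nearest to a start, 26.1% of members lay within 100 bp, 48.3% within 500 bp and 62.8% within 1000 bp. For intervals of library 1 alone the shares were 2.15%, 16.6% and 38.7%, and for those of library 2 alone 5.84%, 23.5% and 40.3%. Members more often held several summits (43.8%, against 6.40% of intervals of library 1 alone). They thus had more summits from which the nearest was taken. Summits were most frequent just upstream of the start, with 2110 in library 1 and 2226 in library 2 between 20 bp upstream and the start itself. Their number then dropped to 372 and 336 per 20 bp at 60 to 80 bp downstream. It rose again in steps, to 604 and 570 between 100 and 140 bp, to 974 and 1112 at 220 to 240 bp and to 616 and 633 between 400 and 440 bp. Summits 100 to 300 bp downstream were weaker, with median fold enrichments of 2.70 and 3.30, than those within 100 bp upstream, with 3.61 and 4.78.

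**Figure D5:**
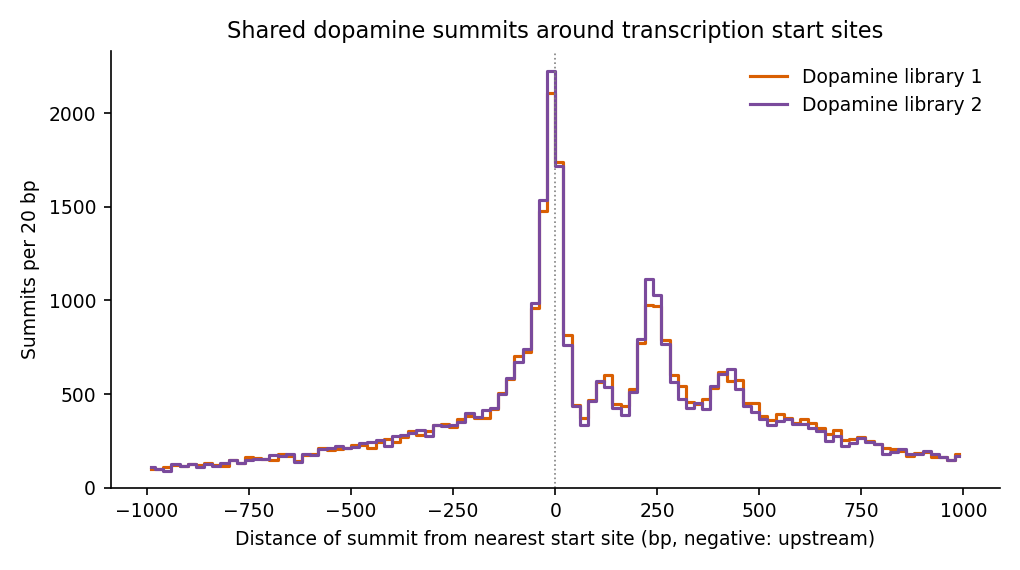
Number of shared dopamine summits per 20 bp (y axis) by distance from the nearest annotated start site in bp (x axis, negative upstream) in dopamine library 1 (orange) and library 2 (purple). Both lines peak at 2110 and 2226 summits just upstream of the start and have smaller maxima downstream, the largest at 220 to 240 bp with 974 and 1112 summits.

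Where an interval held several summits, neighbours lay a median of 143 bp apart in library 1 (quartiles 114 and 194 bp) and 148 bp in library 2 (116 and 203 bp). The settings with which summits were called are not given in the sources used here.

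The shared intervals lay at similar density on the 5 large chromosome arms. Their density was 241 per Mb on 2L, 263 on 2R, 232 on 3L, 247 on 3R and 229 on the X. The median fold enrichment on the X was 2.86 in library 1 and 3.76 in library 2, and on the other arms it ran from 2.78 to 2.86 and from 3.64 to 3.76. The share of library 1 intervals found again was 82.7% on the X and between 77.9% and 79.3% elsewhere. The lists held no interval on chromosomes 4 and Y, and genes there were not analysed here.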

How the data were processed

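ATAC-seq of sorted nuclei was read as deposited. The authors trimmed adapters with CutAdapt, aligned reads with Bowtie2 to a BDGP6 genome (Release 6), removed duplicates with Picard and called peaks with MACS2 in each library. MACS2 settings are not given in the sources used here. The deposited lists give 1 row per summit with a score, a fold enrichment ratio, a −log10 p-value and a −log10 q-value. The deposited comparison table holds, beside its annotation columns (ChIPseeker), the authors' mean signal, fold changes and p-values of dopamine against GABA from DESeq2, none of which were used.

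Positions were counted from 1. Rows with the same interval were merged, and intervals were shared at an overlap of at least 1 bp. Percentiles rank a summit among all summits of its own list, except where percentiles among intervals are named. Pileups were recovered as (fold enrichment × (background + 1)) − 1, and Poisson tails of them gave 100% of the −log10 p-values. In the 3 GABA lists, 47598, 44651 and 53001 distinct fold values, 49.4% to 56.6% of their summits, did not allow this. Start sites (18053) came from the annotation columns, which name a start only where it is nearest to a tested region. Gene spans came from the RefSeq table of Release 6. For genes with no start there, either end was used. Of 144 listed genes in 23 lists, 141 matched a gene on the 5 arms. Overlap, distance and pileup functions were tested on simulated data.

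Named items were the 10 strongest shared summits and 10 genes with most shared summits in each library, the 3 widest members, the 3 largest rank differences each way and the listed genes. Members and lists were chosen with earlier results of these data known. Alternatives were a 50% reciprocal overlap, −log10 q of at least 5, library 2 as the base, other distances, other rankings and single libraries. Promoter motifs were planned and not analysed here, since no sequence was used. Python 3.11.15, numpy 2.4.6, pandas 2.3.3, scipy 1.17.1 and matplotlib 3.10.9 were used.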

Additional observations from a re-analysis of the deposited data

How the results depend on the processing

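With −log10 q of at least 5 in both libraries, 18710 intervals were shared in place of 31890, and 81.3% of those with an annotation were promoters in place of 77.6%. The share of members within 500 bp of a start was 48.3%, and it was 26.1% within 100 bp and 62.8% within 1000 bp. With either library alone, promoters made up 74.5% to 75.7% and intervals within 500 bp of a start 41.8% to 42.5%. Ranked per kb of gene, 0 of the 10 genes with most summits stayed among the first 10. Spearman's rho between libraries was 0.75 in members with a single summit in both, against 0.81. The other 19 alternatives kept their value within the spread or within 1.5 times the main count. Among them were the 50% reciprocal overlap (23297 shared) and the count of listed genes open at the start (96, and 82 to 105 under the alternatives). Some of the 19 could not change. With a single background per library, −log10 q orders summits as fold enrichment does. A limit to the main chromosome arms removed no member. The 9 dopamine synthesis and handling genes had 7 open at the start, 8 in library 2 alone and 9 in library 1 alone, where *Vmat* and *Catsup* were reached by intervals that library 2 did not share. No paired analysis was possible because the text compares no groups with a test. Depth limits the weak end: sites under 23 reads in library 1 or 16 reads in library 2 are not listed.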

Other observations

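The largest differences in rank between the libraries were read from percentiles among the intervals of each list, by the highest summit. Among members that paired 1 to 1, an interval at *Start1* stood at the 0th percentile in library 1 and at 74.7 in library 2, and an interval at *Con* at 3.92 and 73.3. In the other direction, an interval at *CG5254* stood at 70.2 and 3.96 and one at *Rab32* at 66.5 and 0. An interval on the X and one on 2L with no row in the annotated table differed by as much, at 0 and 70.2, and at 74.8 and 7.83. Over all members the median gap was 7.93 percentiles, and 56.8% of members lay within 10 percentiles.

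The rows of the annotated table extended well beyond the shared dopamine intervals, which overlapped 27155 of 80590 rows (33.7%).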
